A study of Homo sapiens with 8 samples.

Results

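The 33 interferon-induced genes described here are a list of antiviral effectors, sensors and regulators whose transcription is known to rise when a cell senses interferon. Their members were found by the gene symbol, or an older alias, that the platform annotation gives to each probe. Of the 33, 32 had a probe, and these held 53 of the 47322 probes of the array. STAT2 is not analysed here. Each gene was read through its probe with the highest mean over all arrays, its brightest probe.

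The arrays hold RNA of adherent Caco-2, an established human colorectal cancer cell line. ESRP1, an RNA-binding protein that sets epithelial splicing patterns, was raised or lowered in these cells with lentiviruses, and 2 Illumina BeadChips carried 2 arrays of each of 4 groups. ESRP1-overexpressing cells carried the ESRP1 cDNA in pLX304, and Empty cells the vector alone, both after blasticidin selection. ESRP1-silenced cells carried an ESRP1 hairpin in pLKO.1, and Scr cells a scrambled hairpin, both after puromycin selection. The hairpin was sh4 on each ESRP1-silenced array, and effects of its own and those of less ESRP1 cannot be told apart. ESRP1-overexpressing and Empty arrays shared a chip and ESRP1-silenced and Scr arrays the other, so that chip, vector and drug cannot be told apart between the Empty and Scr cells. No group was treated with interferon according to the labels.

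Type I and type III interferons bind their receptors and activate the kinases JAK1 and TYK2, which leads STAT proteins to join IRF9 and bind the interferon-stimulated response element (ISRE) of target genes. Interferon gamma acts through STAT dimers that bind the gamma-activated site (GAS). The products of the target genes block viral entry, translation, assembly and release, and some of them, among them the sensors and the transcription factors, feed back on the pathway itself.

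Promoter windows of RefSeq (GRCh38.p14), which hold 250 bases before and 50 bases after a transcription start, were found for 25 of the 33 genes, in 33 windows. They were searched on both strands for the ISRE letters GAAANNGAAA and the GAS letters TTCNNNGAA. ISRE letters were in the windows of 17 of the 25 genes (68.0%), against 4.38% of the 27305 genes with a window. GAS letters were in the windows of 9 of the 25 genes (36.0%), against 9.38%. At least 1 of the motifs was found in 22 genes and both in 4, MX1, BST2, IFI27 and IFITM1. In each of these 4 a match of each kind shares bases, and IFI27 and IFITM1 were detected on no array. A match is a description of the letters only. The stretches of 6 genes that were called in ESRP1-overexpressing cells, and of ISG15 and IFIT1, which were not, follow on the strand of each gene from 5′ to 3′, with the matched letters in capitals.
MX1, chr21:41431834-41431889, plus strand: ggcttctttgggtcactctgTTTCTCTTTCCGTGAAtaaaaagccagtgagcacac
BST2, chr19:17405660-17405786, minus strand: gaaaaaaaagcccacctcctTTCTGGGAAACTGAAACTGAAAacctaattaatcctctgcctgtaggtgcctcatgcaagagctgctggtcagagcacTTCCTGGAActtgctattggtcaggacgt
LGALS3BP, chr17:78979952-78980001, minus strand: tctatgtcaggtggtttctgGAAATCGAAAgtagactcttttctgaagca
IRF1, chr5:132490869-132490917, minus strand: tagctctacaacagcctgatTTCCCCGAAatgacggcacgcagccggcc
IRF9, chr14:24161182-24161230, plus strand: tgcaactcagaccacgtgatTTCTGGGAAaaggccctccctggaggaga
OAS1, chr12:112906774-112906822, plus strand: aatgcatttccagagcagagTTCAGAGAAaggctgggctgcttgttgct
ISG15, chr1:1013364-1013419, plus strand: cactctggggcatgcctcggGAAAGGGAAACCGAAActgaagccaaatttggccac
IFIT1, chr10:89392487-89392549, plus strand: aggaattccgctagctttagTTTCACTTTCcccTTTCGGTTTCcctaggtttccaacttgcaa
The MX1 stretch belongs to the last of its 3 starts, while at its first start the ISRE letters lie after the start, from base 12 to base 21. In BST2 the first capitals are a GAS match that runs into a pair of overlapping ISRE matches, and the later ones a further GAS match. LGALS3BP and ISG15 have ISRE letters only, with 1 and 2 matches, and IRF1, IRF9 and OAS1 have 1 GAS match each. IFIT1, with 2 ISRE matches read on the opposite strand, was detected on only 1 of the 8 arrays. No letters of either motif were found in the windows of UBE2L6, RIGI or STAT2.

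**Figure D1:**
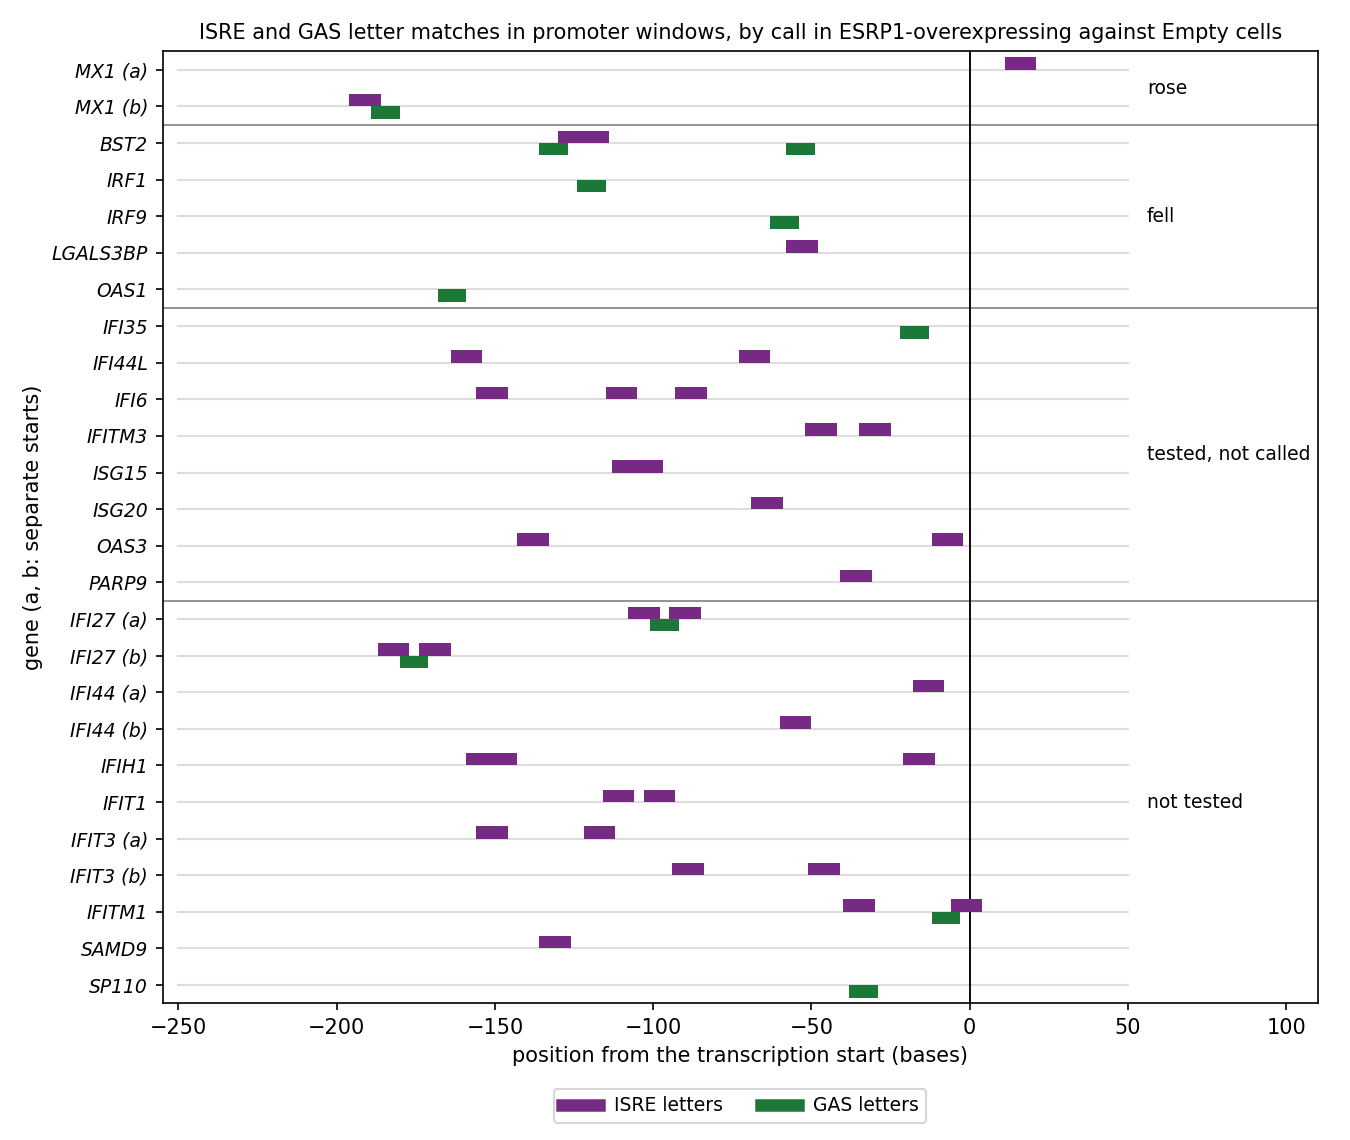
Positions of the ISRE letters (purple) and GAS letters (green) in bases from the transcription start, with 1 row per promoter window that holds a match and genes grouped by their call in ESRP1-overexpressing against Empty cells. Of the genes with a window, ISRE letters were in 1 of 2 that rose, 2 of 5 that fell, 7 of 9 that were tested and not called and 7 of 8 that were not tested.

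The overexpressed and silenced gene itself was read first. The level of ESRP1 (log2) was 9.75 and 9.96 in ESRP1-overexpressing cells, against 8.26 and 7.91 in Empty cells. It was 6.37 and 6.16 in ESRP1-silenced cells, where neither array detected it, against 8.03 and 8.32 in Scr cells. The log2 fold change was 1.77 in ESRP1-overexpressing cells (adjusted p = 0.00378 from limma), and ESRP1 was at least 3.09-fold lower in ESRP1-silenced cells (adjusted p = 0.0475 from limma), a call that no fit without 1 of the 8 arrays kept. This and the other bounds below hold for background-corrected values: without that correction the log2 fold change of ESRP1 was -0.95 in ESRP1-silenced cells, which is short of the bound, and in the authors' values -1.01. Log2 levels here are background-corrected and quantile-normalized signals, and a probe counted as detected on an array at a detection p under 0.01 against the negative controls. Median raw signal was 167.1 to 227.3 per array. Detected probes numbered 15153 to 15627 on the ESRP1-overexpressing and Empty arrays and 16966 to 17535 on the ESRP1-silenced and Scr arrays, on the other chip. A single limma fit tested the 18231 probes that 2 or more arrays detected, as a model of the 4 groups, with calls at an adjusted p under 0.05. The sources used here do not say whether the 2 arrays of a group came from separate cultures, so p-values reflect nothing but how far the arrays of a group differ, which may be technical. With 2 arrays against 2 the smallest p of an exact permutation test is 0.333.

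Caco-2 cells carried only a part of the interferon-induced genes at a level these arrays could detect. Of the 32 genes with a probe, 18 were tested through their brightest probe and 12 were detected on no array: MX2, IFI27, IFI44, IFIT2, IFIT3, IFITM1, OAS2, OASL, IFIH1, USP18, TRIM22 and SAMD9. IFIT1 was detected on 1 ESRP1-silenced array and SP110 on 1 Scr array, which left both untested. Genes detected on both arrays of a group numbered 14 in ESRP1-overexpressing, 15 in Empty, 17 in ESRP1-silenced and 16 in Scr cells. Over all probes too, fewer were detected on the chip of ESRP1-overexpressing and Empty cells (15153 to 15627 per array, against 16966 to 17535). Group and chip cannot be told apart in these counts across the chips. The undetected genes are among the classical interferon targets, such as the IFIT proteins, which bind foreign RNA caps and ends, and USP18, which removes ISG15 from proteins. For them the data give no level, only that it was not above background at this signal.

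**Figure D2:**
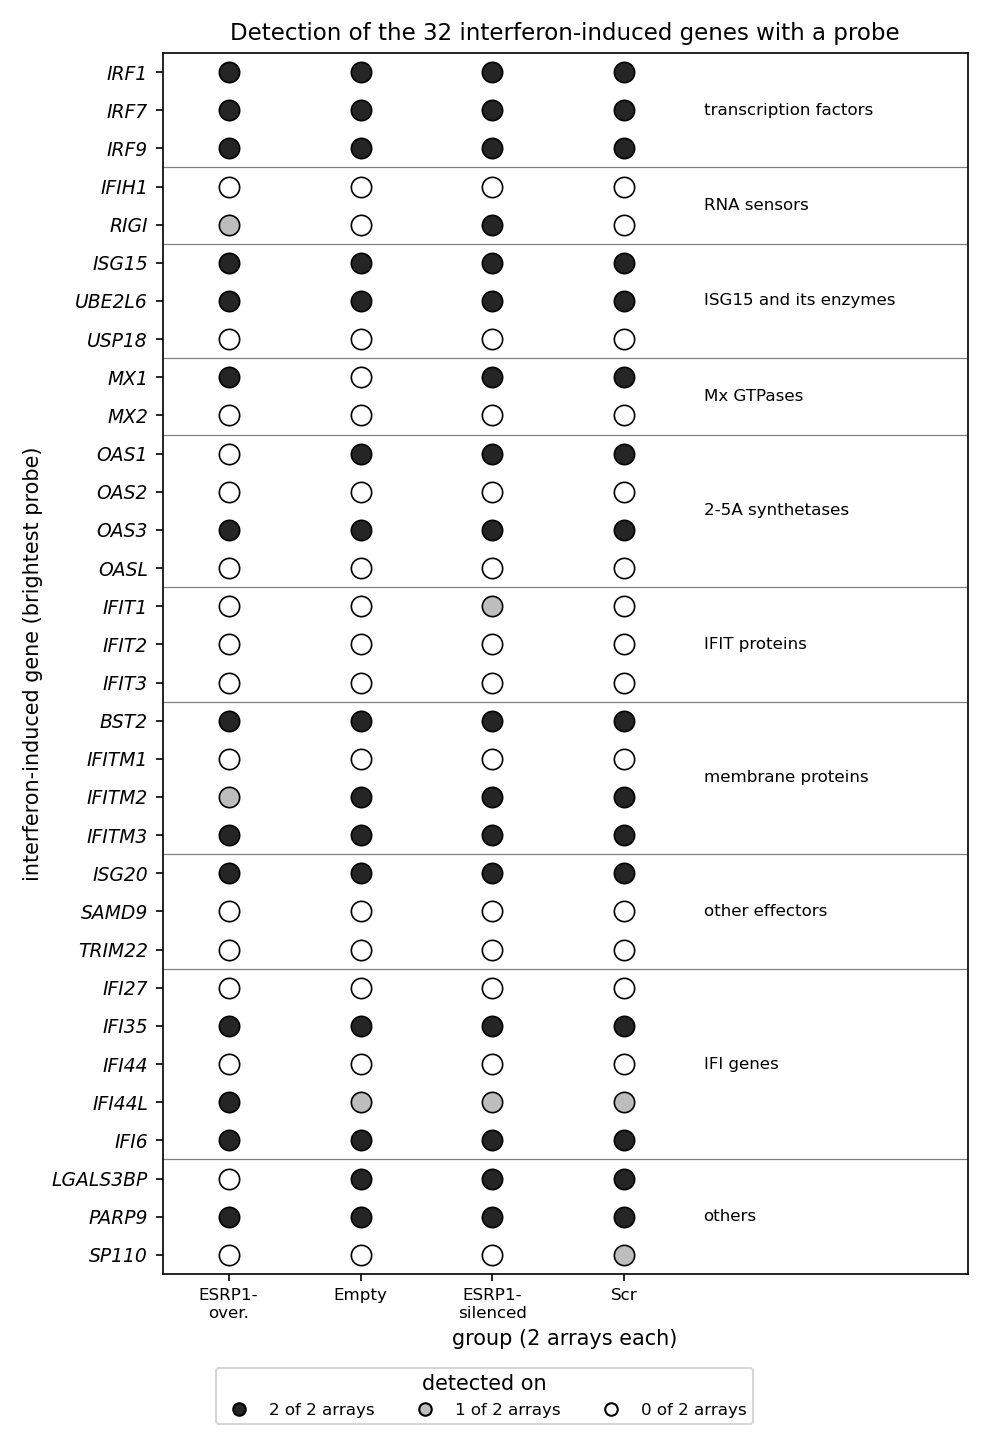
Detection of the brightest probe of each of the 32 genes with a probe, in rows by role, on the 2 arrays of each group (black, both; grey, 1; white, none). The 12 genes with white marks throughout include all of MX2, OAS2, OASL and USP18, while MX1 is white in Empty cells alone and OAS1 and LGALS3BP in ESRP1-overexpressing cells alone.

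In ESRP1-overexpressing cells the genes of the list went both ways. MX1 and UBE2L6 rose and BST2, LGALS3BP, IRF1, IRF9 and OAS1 fell relative to Empty cells, while 11 of the 18 tested genes were not called. The 2 rises are 11.1% of the tested genes, where 4.41% of 10805 genes read through 1 probe were called higher, and 4.06% of all tested probes. The 5 falls are 27.8%, where 3.66% of those genes and 3.36% of the probes were called lower. The members were chosen with earlier results of these data known, so these shares describe the list and are no test of it. On leaving out an array, MX1 alone was called higher in each of 8 fits. The number called lower was then 1 without ESRP1-overexpressing replicate 2, 2 without ESRP1-overexpressing replicate 1 or Empty replicate 1, 3 without any ESRP1-silenced or Scr array and 4 without Empty replicate 2. At an unadjusted p under 0.05 in limma, 3 of the 18 were higher and 9 lower, where 13.9% of all genes were higher and 12.9% lower. The median log2 fold change of the 18 genes was -0.38, against 0.0003 over all genes, and 12 of the 18 had the lower mean in ESRP1-overexpressing cells. The arrays did not overlap between the groups for 15 of the 18 genes, which was so for 60.3% of all genes. In RNA of whole cultures, fewer cells with a transcript and less of it per cell cannot be told apart.

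**Figure D3:**
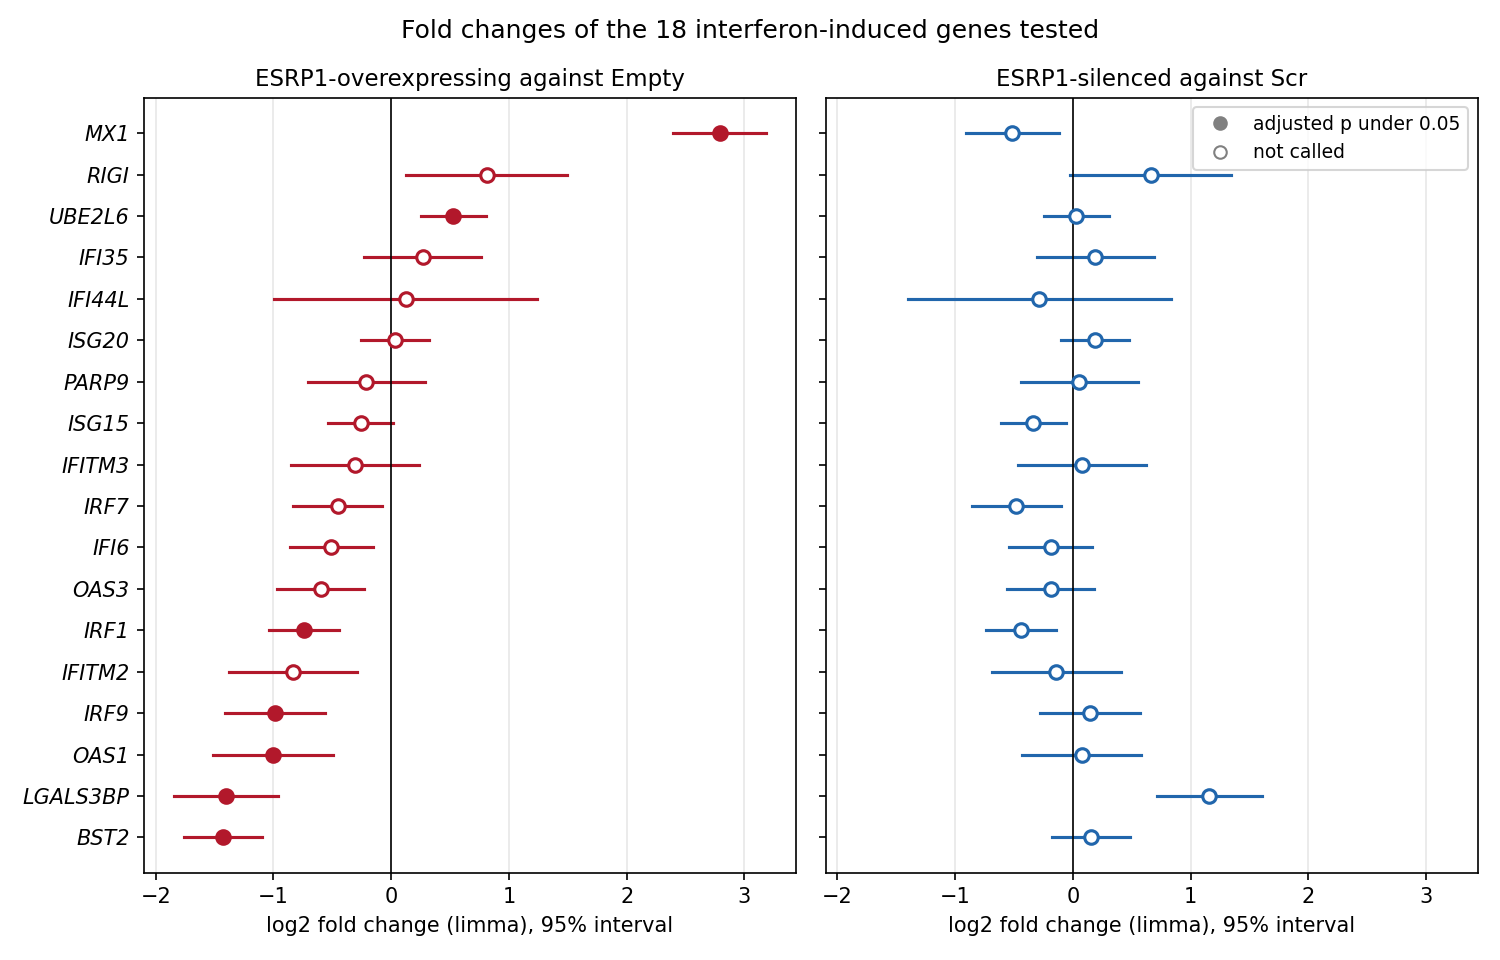
Log2 fold change with its 95% interval from limma for the 18 tested genes, in ESRP1-overexpressing against Empty cells (left) and ESRP1-silenced against Scr cells (right); filled circles have an adjusted p under 0.05. On the left 2 genes are called higher, up to 2.79 for MX1, and 5 lower, down to -1.43 for BST2; on the right none is called.

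Among the transcription factors that carry the signal, all 3 with a probe were detected on every array, and 2 of them fell. IRF9, the DNA-binding subunit of the complex that recognises the ISRE, had log2 levels of 8.99 and 9.003 in ESRP1-overexpressing cells, against 10.23 and 9.73 in Empty cells. Both ESRP1-overexpressing arrays lay below both Empty arrays, and the Empty arrays stood apart from each other. IRF9 fell by 0.98 ± 0.18 on the log2 scale (SE; adjusted p = 0.0251 from limma). That call was kept in 1 of 8 fits that each left out an array, the one without Empty replicate 2, with adjusted p from limma of up to 0.108 in the others.

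IRF1, a factor that interferon gamma induces and that binds similar elements, had log2 levels of 9.62 and 9.42 in ESRP1-overexpressing cells, against 10.19 and 10.33 in Empty cells. The groups did not overlap, and each pair lay close together. IRF1 fell by 0.74 ± 0.12 on the log2 scale (SE; adjusted p = 0.0205 from limma), and the call was lost without any 1 of the 4 arrays of the comparison, with adjusted p up to 0.102 from limma. IRF7, which amplifies type I interferon production, had log2 levels of 9.19 and 9.25, against 9.62 and 9.72 in Empty cells, with no overlap. IRF7 did not pass the test, at a log2 fold change of -0.45 ± 0.16 (SE; adjusted p = 0.137 from limma). A further tested IRF7 probe gave a log2 fold change of -0.27 and was not detected on the ESRP1-overexpressing and Empty arrays, but was detected on all ESRP1-silenced and Scr arrays, on the other chip.

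Of the cytosolic RNA sensors, IFIH1 (MDA5), which recognises long double-stranded RNA, was detected on no array, and RIGI (DDX58 in older annotation), which recognises RNA with a triphosphate end, lay near the limit of detection. IFIH1 had log2 levels of 5.78 and 6.48 in ESRP1-overexpressing cells, 5.72 and 6.08 in Empty cells, 6.02 and 6.19 in ESRP1-silenced cells and 5.92 and 6.03 in Scr cells, all of them background. RIGI had log2 levels of 6.52 and 7.34 in ESRP1-overexpressing cells, where 1 array detected it, against 6.38 and 5.86 in Empty cells, where none did. The groups did not overlap, but the ESRP1-overexpressing arrays spread over more than the gap between the groups. RIGI did not pass the test, at a log2 fold change of 0.81 ± 0.29 (SE; adjusted p = 0.139 from limma).

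ISG15, a ubiquitin-like protein that is joined to other proteins, and its conjugating enzyme UBE2L6 were both detected on all 8 arrays, and the enzyme rose while its substrate did not pass the test. UBE2L6 had log2 levels of 11.14 and 11.07 in ESRP1-overexpressing cells, against 10.48 and 10.67 in Empty cells. The groups did not overlap. UBE2L6 rose by 0.53 ± 0.12 on the log2 scale (SE; adjusted p = 0.044 from limma), and a further probe of the gene gave 1.23 (adjusted p = 0.044 from limma). The call on the brighter probe was lost in all 8 fits that left out an array, with adjusted p up to 0.185 from limma. ISG15 had a log2 fold change of -0.26 with a 95% interval from -0.54 to 0.02.

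The Mx GTPases form rings around viral nucleocapsids, and MX1 was the gene of the list with the largest change among those tested. MX1 had log2 levels of 8.98 and 8.95 in ESRP1-overexpressing cells, against 6.02 and 6.33 in Empty cells, where neither array detected it. The ESRP1-overexpressing arrays were nearly identical and far above the Empty arrays. MX1 was at least 3.91-fold higher in ESRP1-overexpressing cells, with a fitted log2 fold change of 2.79 ± 0.17 (SE; adjusted p = 0.000545 from limma). For this bound the dimmer group was given, array by array, the lowest signal of any detected probe or its own signal, whichever was higher. The call on MX1 was kept in all 8 fits that left out an array, while its fitted log2 fold change was 1.54 without background correction and 1.61 in the authors' values, both short of the bound.

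The oligoadenylate synthetases make the messenger that activates the ribonuclease RNase L, and 2 of the 4, OAS1 and OAS3, were tested. OAS1 had log2 levels of 6.998 and 6.65 in ESRP1-overexpressing cells, where neither array detected it, against 8.09 and 7.56 in Empty cells, where both did. Both ESRP1-overexpressing arrays lay below both Empty arrays. OAS1 was at least 1.71-fold lower in ESRP1-overexpressing cells after background correction, with a fitted log2 fold change of -1.003 ± 0.21 (SE; adjusted p = 0.0395 from limma). The log2 fold change of OAS1 was -0.51 without background correction and -0.55 in the authors' values, both short of the bound. The call was kept in only 1 of 8 fits that left out an array, the one without Empty replicate 2, and further tested OAS1 probes gave -1.26 (adjusted p = 0.125 from limma) and -0.25 (adjusted p = 0.763 from limma). OAS3 had log2 levels of 7.71 and 7.88 in ESRP1-overexpressing cells, against 8.22 and 8.58 in Empty cells, with no overlap. OAS3 did not pass the test, at a log2 fold change of -0.60 ± 0.15 (SE; adjusted p = 0.0654 from limma).

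The membrane proteins of the list act at viral entry and exit, and the 3 that were tested all had lower means in ESRP1-overexpressing cells. BST2 (tetherin), which holds budding virions to the cell surface, had log2 levels of 10.86 and 11.05 in ESRP1-overexpressing cells, against 12.40 and 12.36 in Empty cells. The groups were wide apart, and both were well above background. BST2 fell by 1.43 ± 0.14 on the log2 scale (SE; adjusted p = 0.00337 from limma), and the call was kept in all 8 fits that left out an array. IFITM2, which restricts fusion of entering viruses, had log2 levels of 7.33 and 6.80 in ESRP1-overexpressing cells, where 1 array detected it, against 8.13 and 7.66 in Empty cells. The groups did not overlap, and the fold change of -0.83 on the log2 scale (standard error 0.23) did not pass the test (adjusted p = 0.0789 from limma). IFITM3, its close paralog, had a log2 fold change of -0.31 with a 95% interval from -0.85 to 0.24, and whether the probes tell these paralogs apart was not tested.

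LGALS3BP, a secreted glycoprotein that binds galectins, fell with BST2. Its log2 levels were 7.004 and 6.85 in ESRP1-overexpressing cells, where neither array detected it, against 8.36 and 8.30 in Empty cells, where both did. Each pair lay close together, and the groups did not overlap. LGALS3BP was at least 2.43-fold lower, with a fitted log2 fold change of -1.40 ± 0.19 (SE; adjusted p = 0.0093 from limma). The call was lost only without ESRP1-overexpressing replicate 2 among the 8 fits that left out an array (adjusted p = 0.0555 from limma), and the fitted log2 fold change was -0.78 without background correction and -0.83 in the authors' values, both short of the bound.

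None of the other 5 tested genes was called. IFI6, a mitochondrial and endoplasmic reticulum protein that limits cell death and viral replication, had log2 levels of 9.48 and 9.45 in ESRP1-overexpressing cells, against 10.10 and 9.85 in Empty cells, with no overlap. IFI6 did not pass the test, at a log2 fold change of -0.51 ± 0.15 (SE; adjusted p = 0.088 from limma), and a further probe gave -0.47. ISG20, an exonuclease, IFI35, IFI44L and PARP9, which binds damaged DNA and viral RNA, had log2 fold changes from -0.21 for PARP9 to 0.27 for IFI35. The intervals of these 4 all held 0. A further PARP9 probe gave a log2 fold change of -0.53 (adjusted p = 0.08 from limma).

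**Figure D4:**
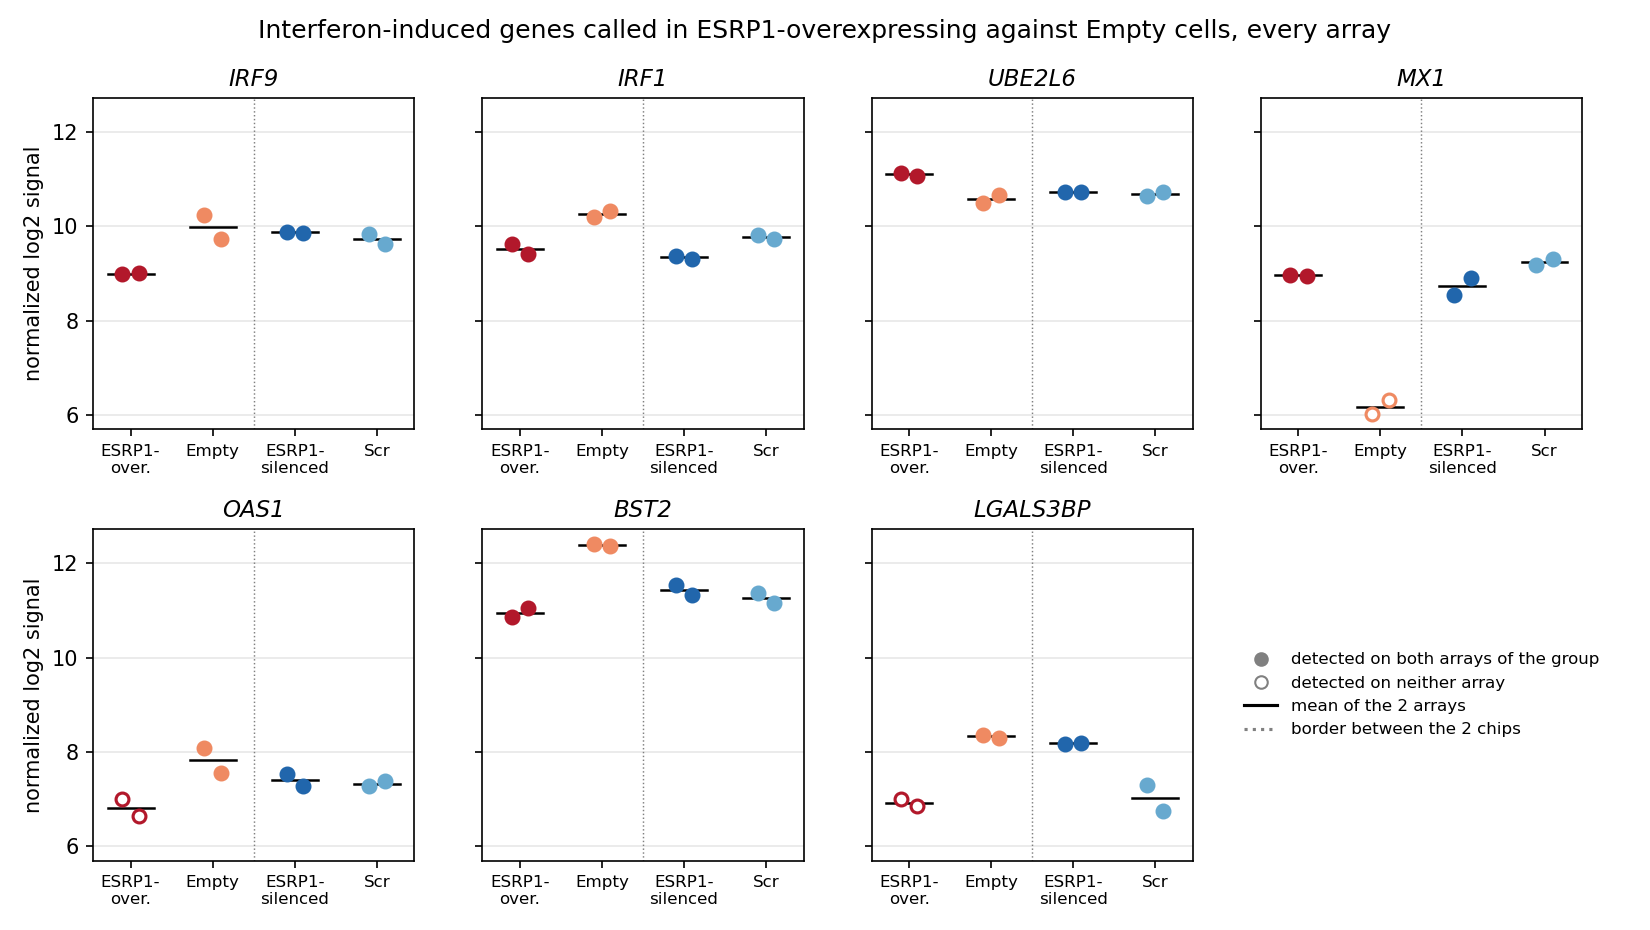
Normalized log2 signal of the 7 called genes on each array, with a bar at the mean of the 2 arrays, filled points where both arrays of the group detected the probe and open points where neither did. MX1 is low in Empty cells alone (6.17 on average, against 8.97 in ESRP1-overexpressing cells), and BST2 is highest there (12.38, against 10.95).

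In ESRP1-silenced cells none of the 18 tested genes was called against Scr cells. Over all tested probes 0.0329% were called higher and 0.0987% lower, and the share of calls that were higher, 25% of 24, was 45.7% of 247 without background correction. At an unadjusted p under 0.05 in limma, 1 of the 18 genes was higher and 4 lower, where 6.24% of all genes were higher and 8.12% lower, while 0 passed the thresholds of the study's own methods on p and fold. The median log2 fold change of the 18 genes was 0.04, against -0.02 over all genes, with 10 means higher and 8 lower. The arrays did not overlap between the groups for 10 of the 18 genes, which was so for 47.6% of all genes.

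LGALS3BP had the largest difference of the 18 tested genes in this comparison, with log2 levels of 8.17 and 8.19 in ESRP1-silenced cells, against 7.30 and 6.75 in Scr cells. The ESRP1-silenced arrays lay above both Scr arrays, and the Scr arrays stood apart from each other. At a log2 fold change of 1.16 (95% interval from 0.72 to 1.60) LGALS3BP did not pass the test (adjusted p = 0.104 from limma). It passed without background correction (0.63, adjusted p = 0.0212 from limma), in the authors' values (0.68, adjusted p = 0.024 from limma) and with a trended and robust variance prior (adjusted p = 0.0212 from limma). MX1 was detected in both groups, at log2 levels of 8.55 and 8.90 in ESRP1-silenced cells and of 9.18 and 9.30 in Scr cells. Its log2 fold change was -0.51 (95% interval from -0.91 to -0.12, adjusted p = 0.277 from limma).

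BST2 had log2 levels of 11.53 and 11.32 in ESRP1-silenced cells, against 11.37 and 11.16 in Scr cells. The arrays of the groups overlapped, and the log2 fold change was 0.16 with a 95% interval from -0.17 to 0.49. Of the transcription factors, IRF1 had log2 levels of 9.38 and 9.31 in ESRP1-silenced cells, against 9.83 and 9.74 in Scr cells, and a log2 fold change of -0.44 (adjusted p = 0.234 from limma). IRF7 had levels of 9.07 and 8.75, against 9.24 and 9.54 in Scr cells, and a log2 fold change of -0.48 (adjusted p = 0.287 from limma). IRF9 had levels of 9.88 and 9.86, against 9.83 and 9.62 in Scr cells, and a log2 fold change of 0.15. For IRF1, IRF7 and IRF9 alike the ESRP1-silenced pair did not overlap with the Scr pair, and no factor passed the test. RIGI had log2 levels of 6.75 and 6.73 in ESRP1-silenced cells, detected on both arrays, against 6.17 and 5.98 in Scr cells, detected on neither. Its fitted log2 fold change was 0.66 with a 95% interval from -0.02 to 1.34 (adjusted p = 0.379 from limma). The bound from the detection limit was 1.08-fold, which takes no account of the spread between arrays. UBE2L6 (0.03) and OAS1 (0.07) had log2 fold changes close to 0.

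The fold change of 3 of the 18 tested genes (16.7%) differed between the comparisons, where 3.2% of all tested probes were called. That background is over probes, and none was taken over genes read through 1 probe. The 16.7% too is of a list chosen with earlier results of these data known. For MX1 the log2 fold change in ESRP1-overexpressing cells minus that in ESRP1-silenced cells was 3.30 (standard error 0.23, adjusted p = 0.00221 from limma). For LGALS3BP it was -2.57 (standard error 0.26, adjusted p = 0.00798 from limma), and the means moved in opposite directions in the 2 comparisons. For BST2 it was -1.59 (standard error 0.20, adjusted p = 0.0132 from limma). The call was lost without ESRP1-silenced replicate 1 for LGALS3BP, and for BST2 without that array, ESRP1-overexpressing replicate 1 or either Scr array. For IRF9 it was -1.13 and did not pass (adjusted p = 0.0658 from limma), and for IRF1, which had the lower mean in both ESRP1-modified groups, it was -0.30 with a standard error of 0.18.

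Set side by side over the 4 groups, with the 8 arrays normalized together, MX1 and BST2 stood apart in Empty cells, while LGALS3BP did not. MX1 averaged 8.97 ± 0.02 in ESRP1-overexpressing, 8.73 ± 0.25 in ESRP1-silenced, 6.17 ± 0.22 in Empty and 9.24 ± 0.09 in Scr cells on the log2 scale (SD, n = 2 arrays). Only in Empty cells was it not detected. BST2 averaged 10.95 ± 0.13 in ESRP1-overexpressing, 11.42 ± 0.15 in ESRP1-silenced, 12.38 ± 0.03 in Empty and 11.27 ± 0.15 in Scr cells (log2, SD, n = 2 arrays). Here Empty cells were above the other 3 groups. LGALS3BP averaged 6.93 ± 0.11 in ESRP1-overexpressing, 8.18 ± 0.02 in ESRP1-silenced, 8.33 ± 0.04 in Empty and 7.02 ± 0.39 in Scr cells (log2, SD, n = 2 arrays). Its levels formed a high pair, Empty and ESRP1-silenced, and a low pair.

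The Empty minus Scr difference runs across the chips and was not tested. Taken relative to the median of all genes, it was -3.02 to -1.72 for MX1, 1.11 to 1.16 for BST2 and 0.76 to 1.38 for LGALS3BP over 4 normalizations, on the log2 scale. It was above the median of all genes in all 4 normalizations for 13 of the 18 tested genes and below it in all 4 for 5. Empty cells had the highest mean of the 4 groups for 9 of the 18 genes, ESRP1-overexpressing cells for 5, Scr cells for 3 and ESRP1-silenced cells for 1. Neither these counts nor those against the median were made over all genes, so they have no background share. When each chip was normalized on its own, 5 of the 18 genes kept the group with the highest mean.

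No interferon transcript was tested. Of the 21 interferon genes with a probe, 20 were detected on no array (IFNA1, IFNA2, IFNA4, IFNA5, IFNA6, IFNA7, IFNA8, IFNA10, IFNA13, IFNA14, IFNA16, IFNA17, IFNA21, IFNB1, IFNE, IFNK, IFNG, IFNL1, IFNL2 and IFNL3), and IFNW1 was detected on 1 Scr array. Their receptors were present: 9 of 11 receptors and kinases were tested, and 1 rose and 1 fell in ESRP1-overexpressing cells. Over all genes 4.41% were called higher and 3.66% lower. Without adjustment (limma p under 0.05) 3 of the 9 were higher and 1 lower, where 13.9% of all genes were higher and 12.9% lower. IFNLR1, the receptor chain particular to interferon lambda, had log2 levels of 7.99 and 8.36, against 8.98 and 9.14 in Empty cells, and a log2 fold change of -0.88 (adjusted p = 0.0231 from limma). IFNGR1, the ligand-binding chain of the interferon gamma receptor, had log2 levels of 12.82 and 12.96, against 12.28 and 12.39 in Empty cells, and a log2 fold change of 0.55 (adjusted p = 0.0475 from limma). The call on IFNGR1 was lost in all 8 fits that left out an array, and that on IFNLR1 was kept in 3 of the 8. A further IFNLR1 probe did not pass (-0.59, adjusted p = 0.099 from limma), and no ESRP1-overexpressing or Empty array detected it.

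Beyond the list, 28 of 56 other interferon-induced genes were tested, and in ESRP1-overexpressing cells 1 was higher and 0 were lower, with 3 higher and 8 lower at an unadjusted p under 0.05 in limma. Of all genes 4.41% were called higher and 3.66% lower, and at the unadjusted threshold 13.9% were higher and 12.9% lower. The 1 was PSMB8, a subunit of the immunoproteasome, at least 1.34-fold higher (adjusted p = 0.014 from limma), with log2 levels of 7.26 and 7.58 in ESRP1-overexpressing cells, against 6.11 and 6.08 in Empty cells, where neither array detected it. This call was lost without ESRP1-overexpressing replicate 2 or Empty replicate 2, and a further PSMB8 probe did not pass (1.203, adjusted p = 0.141 from limma). The median log2 fold change of the 28 genes was -0.10. Of 18 genes induced mainly by interferon gamma, 7 were tested, with 6 means lower and 1 higher. The gene with the higher mean had a log2 fold change of 1.33 and was not called. At an unadjusted p under 0.05 in limma, 1 of the 7 was higher and 3 were lower. Over all genes the median log2 fold change was 0.0003. The 1 call was on CD74, the invariant chain of MHC class II. CD74 had log2 levels of 8.22 and 8.20 in ESRP1-overexpressing cells, against 9.72 and 9.71 in Empty cells. Its log2 fold change was -1.50 (adjusted p = 0.00166 from limma), and a further probe gave -1.66. Of the negative regulators of the pathway 9 of 10 were tested and 0 called (limma, 1 higher and 1 lower at an unadjusted p under 0.05), with the largest log2 fold changes in SOCS3 (0.77) and PTPN6 (-0.39). Of 14 genes of nucleic acid sensing 9 were tested and 0 called (limma, 0 higher and 1 lower at an unadjusted p under 0.05), with -0.80 for TICAM1 and 0.32 for IRF3. In ESRP1-silenced cells 0 genes of these lists were called (limma), and at an unadjusted p under 0.05 the 28 other interferon-induced genes had 3 higher and 2 lower. At that threshold 6.24% of all genes were higher and 8.12% lower in ESRP1-silenced cells.

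Of 8 epithelial and enterocyte markers, EPCAM, CDH1, KRT8, KRT18, VIL1, CDX2 and CDH17 were detected on all 8 arrays. KRT20, the other marker of that list, was detected on fewer than 2 arrays and not tested. The leukocyte markers PTPRC, CD3E, ITGAX and NKG7 were detected on none, while 3 of the 8 with a probe were detected on both arrays of every group. In the difference of the comparisons 1 of these 3 was called higher (4.40) and 1 lower (-1.002, log2, limma), where 3.2% of all tested probes were called. Of 7 fibroblast markers, 3 were detected on both arrays in ESRP1-silenced and in Scr cells, and 1 in each other group. Those other groups lie on the chip where fewer probes were detected over the whole array. Of the 3 tested leukocyte markers LYZ, which intestinal cells also make, rose in ESRP1-overexpressing cells (log2 fold change 3.99, adjusted p = 0.000269 from limma). On this brightest probe its level was low in Empty cells, as for MX1. A further tested LYZ probe gave only 0.80 (adjusted p = 0.0271 from limma) and did not show that low level. Its log2 levels were 8.05 and 8.11 in Empty cells, 6.82 and 7.04 in ESRP1-silenced cells and 7.08 and 7.26 in Scr cells. The summed linear level of the 8 leukocyte markers was 10200 on both ESRP1-overexpressing arrays, against 5240 to 5350 on the Empty arrays, and without LYZ 4200 to 4390, against 4870 to 4980. In the silencing comparison it was 6030 to 7220 on the ESRP1-silenced arrays, against 6070 to 6530 on the Scr arrays, and without LYZ 3870 to 3940, against 2590 to 2900. The part of these markers in the results was not tested.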

How the data were processed

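RNA of adherent Caco-2 cells was measured on 8 arrays in 4 groups of 2. Deposited values are probe intensities (mean signals) to which the authors applied no normalization or background subtraction, each with the deposited detection p-value. In 88 cells the p-value was written with a misplaced comma and read as 1. A second deposited table holds intensities that the authors normalized by a method not given in the sources used here, and it served as an alternative.

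In limma 3.58.1 under R 4.3.3, neqc inferred the background through the detection p-values. It was run with an offset of 16 and quantile normalization over the 8 arrays and returned log2 values. The platform annotation gave the gene symbols and assigns 1 symbol to 30113 probes, more than 1 to 8 and no symbol to 17201. Probes that 2 or more arrays detected (p under 0.01), 18231 in all, entered 1 limma fit of 4 groups (residual degrees of freedom 4, prior 2.8), and two-sided p-values were adjusted by Benjamini-Hochberg over all of them. Both comparisons and their difference were contrasts of that fit, which was tested on simulated data.

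The members and lists were chosen with earlier results of these data known. All members are named, with values on each array for called members, for others with an absolute log2 fold change over 0.5 and for IRF9, IRF1, IRF7 and the RNA sensors. Of each other list up to 4 called genes are named, or else the 2 with the largest absolute fold change. Alternatives covered the background step (none), the table of the authors, chips normalized apart, the detection filter (none, or all 8 arrays), a fit of 4 arrays, a replicate block, 1 array left out at a time, a prior that was trended and robust, the mean over a gene's probes, and the t-test named in the methods (p under 0.01 and a fold over 1.5). The number of arrays, 2 per group, limits the precision. RNA quality was not analysed here.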

Additional observations from a re-analysis of the deposited data

Results flagged for a closer look

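For 3 genes the fold change in ESRP1-overexpressing against Empty cells differed from that in ESRP1-silenced against Scr cells by a contrast of the same limma fit. The difference of the log2 fold changes was 3.3 for MX1 (adjusted p = 0.00221 from limma), which was detected in ESRP1-overexpressing, ESRP1-silenced and Scr cells and not in Empty cells. It was kept in all 8 fits that left out an array. The difference was -2.57 for LGALS3BP (adjusted p = 0.00798 from limma), and it was lost without ESRP1-silenced replicate 1 (adjusted p = 0.0509 from limma). The difference was -1.59 for BST2 (adjusted p = 0.0132 from limma), and it was kept in 4 of the 8 fits, with adjusted p from limma of 0.0539 without Scr replicate 1, 0.0669 without Scr replicate 2, 0.0633 without ESRP1-silenced replicate 1 and 0.0544 without ESRP1-overexpressing replicate 1. The comparisons lie on different chips and used different vectors and drugs, so that these cannot be told apart from the direction of the ESRP1 change. With 2 arrays per group no single array could be assessed as standing apart from its group.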

How the results depend on the processing

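Over 1254 refitted fold changes of 24 named genes, 0 called changes turned direction, 98 lost a call and 19 gained one. Most of the 1254 were not called in the main fit and could not lose a call, so the 98 are a larger share of those that could. Another 48, not called, moved by more than their standard error. The number of probes called depended most on the settings. For ESRP1-overexpressing against Empty cells it was 1354, and 2208 without background correction, 2140 in the authors' values, 508 without a detection filter, 142 with only the 4 arrays, 2557 with a trended and robust prior, 452 by the methods' t-test, 0 after its adjustment and 376 to 998 on leaving out an array. For ESRP1-silenced against Scr cells it was 24, and at these settings 247, 219, 0, 0, 549, 125, 0 and 0 to 0, with 46 when each chip was normalized on its own and 237 with detection on all 8 arrays. For the difference it was 584, and 1249 without background correction, 1182 in the authors' values, 166 without a filter, 1039 with detection on all 8 arrays, 1640 with the trended prior and 91 to 349 on leaving out an array; a fit of 4 arrays cannot give it.

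Of the interferon-induced genes, the 2 higher in ESRP1-overexpressing cells were 1 without a filter, with detection on all 8 arrays, with only the 4 arrays, by the methods' t-test and on leaving out any array, and 0 after that test's adjustment. The 5 lower were 2 without a filter, with only the 4 arrays and by the methods' t-test, 0 after its adjustment, and 1 to 4 on leaving out an array. Of the higher genes, the 1 with detection on all 8 arrays was UBE2L6, since that filter removed MX1, which was undetected in Empty cells. At the other settings with 1 higher gene it was MX1. In ESRP1-silenced cells 1 gene, LGALS3BP, was higher without background correction, in the authors' values and with the trended prior. The median log2 fold change was -0.25 in ESRP1-overexpressing cells without a filter. In ESRP1-silenced cells the median of 0.04 turned to -0.11 without a filter and -0.031 with the mean of a gene's probes, and was -0.0675 to 0.0555 on leaving out an array, so it has no settled direction. The group with the highest mean was kept by 5 of the 18 genes with each chip normalized on its own. IFI6 was called lower in ESRP1-overexpressing cells at 4 settings, IFITM2 at 2 and OAS3 at 1.

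The replicate numbers did not pair the arrays (correlation of deviations 0.0197 and 0.0582). With the replicate block 1 interferon-induced gene was higher in ESRP1-overexpressing cells, as UBE2L6 lost its call (adjusted p = 0.0673 from limma) and IFNGR1 did too, while 0 probes were called in ESRP1-silenced cells, ESRP1 included, and 351 in the difference. It changed no other call among the named genes.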
